A study of Mus musculus with 12 samples.

Results

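The brain endothelial barrier genes described here are 10 genes of the cells that line brain vessels, taken by symbol from the deposited count table, which holds 24985 genes. They comprise the tight junction gene Cldn5, the vessel identity genes Cdh5 and Pecam1, the receptors Flt1 and Tek, the transporters Slco1a4, Abcb1a, Mfsd2a and Slc2a1, and the membrane protein gene Itm2a. All 10 were among the 14742 genes with enough counts to be tested. The counts came from poly(A) RNA sequencing of the dorsal hippocampus of 12 C57Bl6/J mice, 3 in each of 4 groups, in an experiment that crossed seeding of tau pathology with dietary acetate. The mice had no engineered allele in the labels and were operated on at 6 months of age, when PBS or 1 µg AD tau (pathological tau extracted from the brains of people with Alzheimer's disease) was injected on one side. They were fed LabDiet chow with 5% sodium acetate or a calorically matched control chow made by TestDiet, and the dorsal hippocampus of the right hemisphere was collected 6 months after injection, 24 h after a remote memory recall session that all groups underwent. The groups were thus PBS-injected mice on the control diet, PBS-injected mice on the acetate diet, tau-injected control-diet mice and tau-injected acetate-diet mice. The model has no tau transgene, so that the human seeds act on the tau of the mouse.

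Brain capillaries are lined by endothelial cells whose tight junctions close the path between cells and whose transport proteins decide what crosses them, which is the blood-brain barrier. Claudin-5 seals the junctions, VE-cadherin and PECAM-1 hold neighbouring endothelial cells together, and the receptors VEGFR1 and Tie2 read growth factors from the surrounding tissue. Glucose enters through GLUT1, lysolipids carrying omega-3 fatty acids through MFSD2A, organic anions move through Oatp1a4, and P-glycoprotein pumps drugs and other foreign lipophilic compounds back into the blood. In the hippocampus these cells are a small share of the tissue, and bulk RNA counts their messages together with those of neurons and glia. In such samples fewer cells of a type and less RNA per cell cannot be told apart.

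Depth and spread set what could be seen. Library totals were 12983233 to 20218340 counted reads, and the 10 barrier genes had between 126 reads (Cdh5) and 1809 reads (Slc2a1) in a mouse. Levels are given as CPM, counts of a gene scaled to the library's total, after TMM normalization, and TMM factors were 0.990 to 1.01. Differences are log2 fold changes from edgeR's quasi-likelihood fit over all 12 mice, with a standard error (SE) and a 95% interval, and a call required an adjusted p (Benjamini-Hochberg, over the 14742 genes) below 0.1. The labels give every mouse as male, but Xist, transcribed from a silenced X, had 13583 to 25991 reads in each of the 12 libraries, and the Y-linked genes Ddx3y, Uty, Kdm5d and Eif2s3y had 0. This held in all 4 groups, and Itm2a is the only barrier gene here on the X chromosome. Xist had a log2 fold change of 0.27 with acetate in PBS-injected mice, at an unadjusted p below 0.05 in edgeR. This was called by DESeq2's Wald test and not by edgeR, and its part in the Itm2a values was not tested. Of a list of 5 blood genes, the 4 haemoglobin genes were listed at 0 reads in all 12 mice, and Alas2, the erythroid enzyme of haem synthesis, stood at 2.14 to 5.31 CPM. Of 19 other vessel identity genes on a list, 18 were in the table under the listed symbol and all 18 passed the filter on low counts, and their summed level was between 744.8 and 893.5 CPM.

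Per kilobase of exon, the 10 genes fell into 3 tiers of level that did not overlap in any of the 12 mice. Cldn5 stood highest at 21.9 ± 2.84 CPM per kb (mean ± SD, n = 12), followed by Slc2a1 at 21.5 ± 2.28 and Itm2a at 17.6 ± 1.54, and the ranges of neighbours in this order overlapped. The middle tier held 3 transporters and 1 receptor, Slco1a4 at 5.89 ± 0.445 CPM per kb, Mfsd2a at 5.86 ± 0.547, Abcb1a at 5.32 ± 0.579 and Flt1 at 4.85 ± 0.436, each overlapping its neighbour. The lowest tier was Pecam1 at 2.89 ± 0.249, Cdh5 at 2.66 ± 0.419 and Tek at 2.66 ± 0.390 CPM per kb, which also overlapped. The lowest Itm2a value, 15.2 CPM per kb, lay above the highest value of the middle tier, 6.70 for Mfsd2a, and the lowest Flt1 value, 4.29, lay above the highest value of the lowest tier, 3.68 for Cdh5. Exon lengths were those of GENCODE on GRCm38, from 1416 bases for Cldn5 to 13504 for Flt1, and a gene whose main transcript is shorter than its merged exons is understated by this scale.

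**Figure D1:**
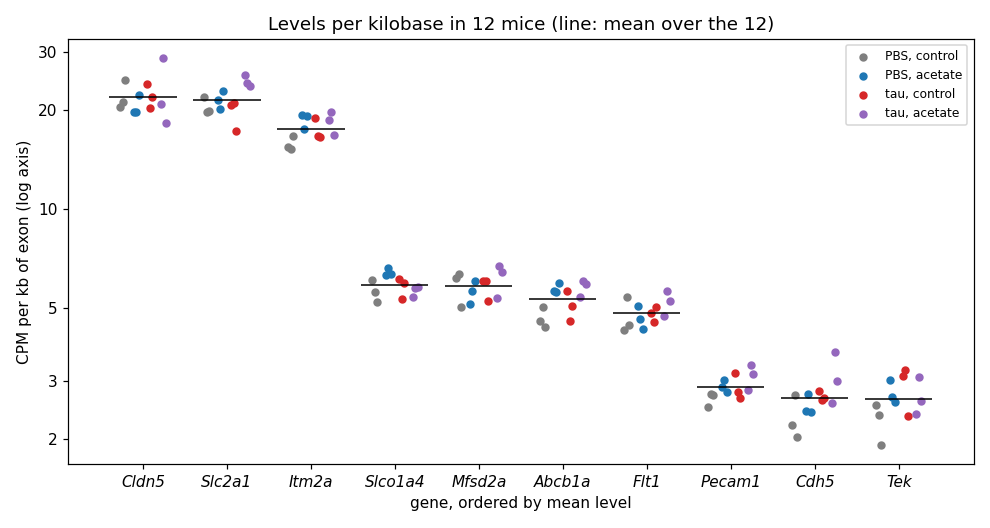
Level of each barrier gene in CPM per kb of exon on a log axis, with 1 point per mouse coloured by group and a line at the mean over the 12 mice. Cldn5, Slc2a1 and Itm2a lie between 15.2 and 28.8, and Pecam1, Cdh5 and Tek all lie at or below 3.68.

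The promoter sequences of 3 of the genes are shown because these genes differ in what was measured here, Itm2a having been called for acetate in PBS-injected mice, Slc2a1 having the largest acetate difference among the barrier genes in tau-injected mice, and Cldn5 being the most abundant per kb and called in no comparison. Each is the RefSeq window on GRCm38.p6 from 250 bases before to 50 bases after the annotated start, written 5′ to 3′ on the strand of the gene. RefSeq windows were held for 8 of the 10 genes, Pecam1 and Cdh5 being the other two. The Abcb1a window was not printed, because it lies 92986 bases from the GENCODE start of the counted gene. Capitals mark matches, on either strand, to the ETS core (GGAA), the TATA box (TATAAA), the GC box (GGGCGG) and the CCAAT box (CCAAT), and in these 3 windows no base belonged to more than 1 match. The windows are chrX:107403311-107403610 on the minus strand for Itm2a, chr4:119108495-119108794 on the plus strand for Slc2a1, and chr16:18776597-18776896 on the plus strand for Cldn5.
Itm2a: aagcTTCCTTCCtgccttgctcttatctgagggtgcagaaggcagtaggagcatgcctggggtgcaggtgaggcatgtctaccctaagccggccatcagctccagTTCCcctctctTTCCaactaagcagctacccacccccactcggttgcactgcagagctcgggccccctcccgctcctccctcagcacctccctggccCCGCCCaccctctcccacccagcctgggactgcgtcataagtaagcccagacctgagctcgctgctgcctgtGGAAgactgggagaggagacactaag
Slc2a1: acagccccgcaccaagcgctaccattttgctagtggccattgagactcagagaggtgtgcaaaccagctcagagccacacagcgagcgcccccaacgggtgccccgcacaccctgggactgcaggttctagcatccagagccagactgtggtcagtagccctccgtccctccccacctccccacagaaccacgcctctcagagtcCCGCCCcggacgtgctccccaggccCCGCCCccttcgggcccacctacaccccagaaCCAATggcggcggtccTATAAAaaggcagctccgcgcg
Cldn5: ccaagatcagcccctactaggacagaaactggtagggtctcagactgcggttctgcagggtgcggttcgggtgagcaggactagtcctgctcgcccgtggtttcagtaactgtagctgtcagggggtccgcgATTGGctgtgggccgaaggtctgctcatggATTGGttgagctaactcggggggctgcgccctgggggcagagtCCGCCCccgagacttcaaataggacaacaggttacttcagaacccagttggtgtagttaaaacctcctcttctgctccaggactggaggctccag
The Itm2a window held 5 ETS cores and 1 GC box. The Slc2a1 window held 0 ETS cores, 1 TATA box, 2 GC boxes and 1 CCAAT box, and that of Cldn5 held 0 ETS cores, 1 GC box and 2 CCAAT boxes. ETS cores were present in 6 of the 8 windows, against 96% of 32851 RefSeq promoter windows of the same length, which held 3.52 on average. The TATA box was in 2 of the 8 (13.6% of all windows), the GC box in 4 (35.7%) and the CCAAT box in 4 (37.4%). The 8 include the Abcb1a window that was not printed, which held 5 ETS cores and 0 TATA, GC and CCAAT boxes. These are letter matches and nothing was measured on binding.

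Acetate feeding in PBS-injected mice was the comparison in which barrier genes were called, and both called genes were higher with acetate. Abcb1a, which encodes the P-glycoprotein efflux pump, rose by 22.8%, and Itm2a, a type II membrane protein enriched in brain endothelium, rose by 18.2%. The 2 of 10 compare with 8.84% of all genes tested that were called in either direction and 3.99% called higher. Among the 10, 7 had a log2 fold change above 0, with a median of 0.13 against 0.0042 over all genes, and 3 had an unadjusted p below 0.05, against 20.8% of all genes. In 5 of the 10 (Pecam1, Tek, Slco1a4, Abcb1a and Itm2a) the 3 acetate mice all lay above the 3 control mice, against 13.1% of all genes tested without overlap in that direction and 26.3% in either direction.

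Abcb1a (chr5:8660077-8748575, plus strand) stood at 25.1, 27.6 and 24.0 CPM in the 3 PBS-injected mice on the control diet and at 30.8, 30.6 and 32.6 CPM in those on acetate. The lowest acetate mouse lay above the highest control mouse. The log2 fold change was 0.30 (SE 0.086, 95% interval 0.116 to 0.476, edgeR adjusted p = 0.0593), and DESeq2's Wald test gave an adjusted p of 0.0553, with 9.01% of 15059 genes called by that tool. Abcb1b, the other mouse gene for P-glycoprotein and a close paralog, had a log2 fold change of 0.02 in the same mice (edgeR adjusted p = 0.969), and how far reads were shared between the pair in the authors' counting was not tested. Itm2a (chrX:107397099-107403376, minus strand, promoter printed above) stood at 27.0, 26.6 and 29.1 CPM on the control diet and at 33.6, 30.6 and 33.5 CPM on acetate. Again the groups did not overlap. Its log2 fold change was 0.24 (SE 0.082, 95% interval 0.0707 to 0.413, edgeR adjusted p = 0.0962), and DESeq2 did not call it (adjusted p = 0.128). For Abcb1a, edgeR's adjusted p was 0.133 or 0.212 without PBS-injected control mouse 1 or 3, and 0.127, 0.178 or 0.126 without PBS-injected acetate mouse 1, 2 or 3. For Itm2a it was 0.199, 0.205 or 0.153 without PBS-injected control mouse 1, 2 or 3, 0.239, 0.183 or 0.187 without PBS-injected acetate mouse 1, 2 or 3, and 0.101 without tau-injected control mouse 3.

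The other 3 transporters did not pass the threshold. Slco1a4 (chr6:141805440-141856199, minus strand), which carries organic anions such as bile acids and drugs, stood at 39.2, 35.9 and 33.5 CPM on the control diet and at 40.5, 42.6 and 40.8 on acetate. The groups did not overlap, with a log2 fold change of 0.19 (SE 0.075, 95% interval 0.0327 to 0.346, edgeR adjusted p = 0.153). Slc2a1 (chr4:119108711-119137983, plus strand) averaged 71.8 ± 4.49 CPM (SD, n = 3) on the control diet and 75.3 ± 4.59 on acetate, and Mfsd2a (chr4:122946850-122961188, minus strand) 13.2 ± 1.62 and 12.6 ± 0.992. Their 95% intervals of the log2 fold change, -0.0888 to 0.220 and -0.309 to 0.192, both included 0.

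None of the junction and identity genes was called in this comparison. Cldn5 (chr16:18776847-18778262, plus strand) stood at 29.0, 30.0 and 35.0 CPM on the control diet and at 27.9, 28.0 and 31.6 on acetate, with overlapping groups and a log2 fold change of -0.11 (95% interval -0.407 to 0.196). Cdh5 (chr8:104101625-104144511, plus strand), the gene of VE-cadherin, averaged 9.74 ± 1.51 and 10.6 ± 0.762 CPM. Pecam1 (chr11:106654217-106750628, minus strand) averaged 16.6 ± 0.835 and 18.0 ± 0.790 CPM, with no overlap between the groups and a log2 fold change of 0.13 (95% interval -0.0760 to 0.329, edgeR adjusted p = 0.486). Neither receptor was called. Tek (chr4:94739289-94874976, plus strand), the Tie2 receptor for angiopoietins, stood at 11.9, 11.2 and 9.07 CPM on the control diet and at 14.2, 12.6 and 12.2 on acetate, a log2 fold change of 0.27 (SE 0.140, 95% interval -0.0193 to 0.568, edgeR adjusted p = 0.276) with no overlap. Flt1 (chr5:147561604-147726011, minus strand), the VEGFR1 gene, averaged 63.6 ± 8.07 and 63.2 ± 5.15 CPM, a log2 fold change of -0.0059. Cdh5, Abcb1a and Slc2a1 overlap annotated genes on the opposite strand, and counting was by strand. On the same strand Abcb1a overlaps Gm42684 and Slc2a1 overlaps Mir1957a, which strand does not separate, and the effect on their counts was not tested.

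**Figure D2:**
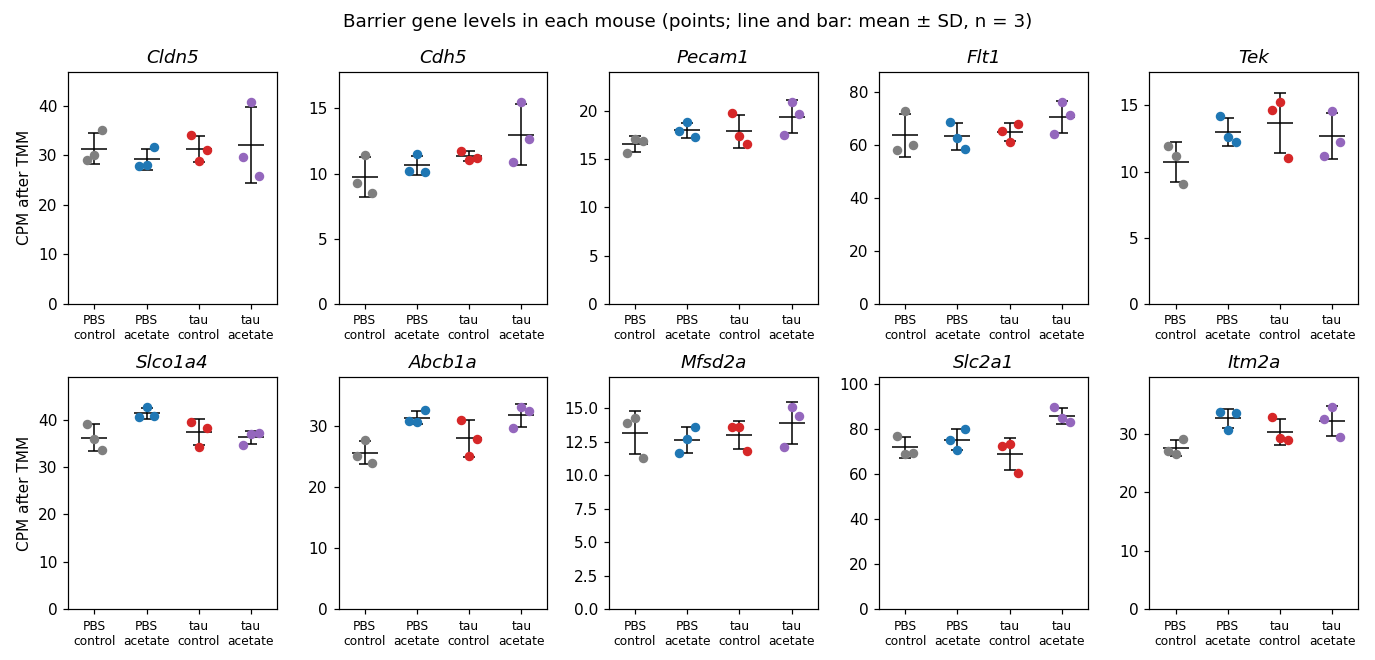
Level of each barrier gene in CPM after TMM, from 0, with 1 point per mouse and a line and bar at the mean ± SD of the 3 mice of each group. In the Abcb1a panel the PBS acetate mice lie between 30.6 and 32.6 and the PBS control mice between 24.0 and 27.6, and in the Slc2a1 panel the tau acetate mice lie between 83.0 and 89.7, above the other 9 mice.

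Other tissue markers differed between the same 2 groups, and their part in the barrier gene results was not tested. Of 5 CA1 markers, 3 were called higher with acetate, and the sum of the list was 492.0 to 637.9 CPM on the control diet and 771.8 to 1020 on acetate. Of 6 CA3 markers, 3 were called lower, with sums of 542.7 to 662.9 and 321.3 to 504.9 CPM. Of 9 oligodendrocyte markers 2 were called lower, with sums of 7312 to 9443 and 4597 to 6333 CPM, and of 10 choroid plexus markers, 9 of them tested, 2 were called lower, with sums of 95.1 to 126.8 and 70.5 to 85.8 CPM. Over all genes edgeR called 8.84% in either direction and 3.99% higher. DESeq2 called 4 CA1, 4 CA3, 4 oligodendrocyte and 2 choroid plexus markers, against 9.01% of 15059 genes. Of the 9 oligodendrocyte markers 0 were above 0, and 6 had an unadjusted p below 0.05 in edgeR, against 20.8% of all genes. Every marker of these 4 lists had reads in at least 1 of the 12 mice. Microglial sums overlapped between the groups (344.0 to 356.9 and 337.1 to 356.7 CPM, 0 of 8 called by edgeR or DESeq2 or below an unadjusted p of 0.05), as did astrocyte sums (4333 to 4626 and 4313 to 4787 CPM, with Slc1a3 called higher and Aqp4 called lower among 8).

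In tau-injected mice, Slc2a1 showed the largest difference between the diets among the barrier genes. It encodes GLUT1, the glucose transporter of brain endothelium, which astrocytes also make. Slc2a1 stood at 72.6, 73.5 and 60.5 CPM on the control diet and at 89.7, 84.8 and 83.0 CPM on acetate. All 3 acetate mice lay above all 3 control mice, and above the 6 PBS-injected mice, whose highest value was 80.0 CPM. The difference was 24.6%, a log2 fold change of 0.32 (SE 0.074, 95% interval 0.163 to 0.472), which did not pass the threshold (edgeR adjusted p = 0.168). It was called by DESeq2 (adjusted p = 0.0263) and by edgeR without the filter on low counts (adjusted p = 0.0744). By edgeR 0 of 10 barrier genes were called, against 0.0611% of all genes, and 2 had an unadjusted p below 0.05, against 10.9% of all genes. DESeq2 called 1 of the 6 barrier genes to which it gave an adjusted p, against 2.14% of 8212 genes. Slc2a1 was also the only barrier gene without overlap between these groups, against 14.4% of all genes in either direction and 6.66% higher with acetate.

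The genes called for acetate in PBS-injected mice had smaller differences in tau-injected mice. Abcb1a stood at 31.0, 25.1 and 27.8 CPM on the control diet and at 29.6, 33.0 and 32.4 on acetate, so that the groups overlapped, with a log2 fold change of 0.18 (SE 0.086, 95% interval 0.0018 to 0.360, edgeR adjusted p = 0.453). Itm2a stood at 32.9, 29.2 and 28.9 CPM and at 32.5, 34.5 and 29.4 CPM, a log2 fold change of 0.08 (95% interval -0.0874 to 0.253). Slco1a4 averaged 37.3 ± 2.71 CPM on the control diet and 36.2 ± 1.35 on acetate, and Tek 13.7 ± 2.26 and 12.7 ± 1.73 CPM. Those 2 were the genes below 0 in this comparison, with log2 fold changes of -0.04 and -0.11, and the other 8 were above 0. The median of the 10 was 0.10, against 0.00079 over all genes. Of 9 oligodendrocyte markers 0 were called between these groups by edgeR or DESeq2 and 8 had an unadjusted p below 0.05, with sums of 4856 to 5880 CPM on the control diet and 5552 to 8910 on acetate, and their part in the Slc2a1 values was not tested. Choroid plexus sums were 86.2 and 86.3 CPM in 2 of the tau-injected acetate mice and 501.9 CPM in mouse 3. Mouse 3 had the highest value of 0 barrier genes and the lowest value of 1, Cldn5. It was above the gene's mean over all mice for 6 of the 10. The part of the choroid plexus markers in the barrier gene values was not tested.

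Seeding with AD tau was compared with PBS on each diet. On the control diet 0 of 10 barrier genes were called by edgeR, against 0.0136% of all genes, and in 0 of 10 did the groups separate, against 13.5%. DESeq2 also called 0 of the 10, and 86 of all genes. At an unadjusted p below 0.05 in edgeR there was 1, against 9.65% of all genes. That gene was Tek, at 11.9, 11.2 and 9.07 CPM in PBS-injected mice and 14.6, 15.3 and 11.1 CPM in tau-injected mice. Tau-injected mouse 3 lay within the PBS range and the other two above it. The log2 fold change of Tek was 0.35 (SE 0.142, 95% interval 0.0514 to 0.645, edgeR adjusted p = 0.430). Cdh5 had the next largest difference, from 9.74 ± 1.51 to 11.3 ± 0.359 CPM (SD, n = 3), or 0.23 as a log2 fold change (95% interval -0.0685 to 0.522). Cldn5 averaged 31.3 ± 3.21 and 31.3 ± 2.64 CPM, a log2 fold change of -0.0038 with a 95% interval from -0.308 to 0.300. The 10 genes had a median log2 fold change of 0.08, against -0.00086 over all genes. Tissue markers differed between the same groups, and their part in these values was not tested. All 9 oligodendrocyte markers had an unadjusted p below 0.05 in edgeR, which called 0, and DESeq2 called 1. Their sums were 7312 to 9443 CPM after PBS and 4856 to 5880 after tau. CA1 sums were 492.0 to 637.9 and 671.8 to 826.8 CPM, and CA3 sums 542.7 to 662.9 and 434.9 to 532.1. Sums of 10 meningeal genes were 52.4 to 67.1 and 67.3 to 82.9 CPM, and astrocyte sums overlapped.

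On the acetate diet 0 of 10 were called between tau-injected and PBS-injected mice by edgeR, against 0.136% of all genes, with 3 at an unadjusted p below 0.05, against 10.3%. DESeq2 called 0 of the 10, and 121 of all genes. In 2 of the 10 the groups did not overlap, against 16.2% of all genes, and these were both transporters. Slco1a4 was lower in every tau-injected mouse, at 34.7, 36.9 and 37.1 CPM against 40.5, 42.6 and 40.8 CPM, a log2 fold change of -0.19 (SE 0.074, 95% interval -0.346 to -0.0356, edgeR adjusted p = 0.382). Slc2a1 was higher in every tau-injected mouse, at 89.7, 84.8 and 83.0 CPM against 75.2, 70.8 and 80.0 CPM, a log2 fold change of 0.19 (SE 0.073, 95% interval 0.0377 to 0.343, edgeR adjusted p = 0.373). Cdh5 was the third gene at an unadjusted p below 0.05. It stood at 10.2, 11.5 and 10.2 CPM in PBS-injected mice and at 10.9, 15.5 and 12.7 CPM in tau-injected mice, with 1 tau-injected mouse within the PBS range and a log2 fold change of 0.28 (95% interval 0.0033 to 0.563, edgeR adjusted p = 0.478). The median of the 10 was 0.12, against -0.0035 over all genes. Of 9 oligodendrocyte markers 5 had an unadjusted p below 0.05 in edgeR. Their sums were 4597 to 6333 CPM in PBS-injected mice and 5552 to 8910 in tau-injected mice. Of 8 microglial markers 6 were below that p, with sums of 337.1 to 356.7 and 375.3 to 436.0 CPM. All 9 tested choroid plexus markers were above 0, with a median of 2.19, and 6 were below that p. EdgeR called 0 of them and DESeq2 4. Their sums were 70.5 to 85.8 CPM in PBS-injected mice. In tau-injected mice they were 86.3 and 86.2 CPM in mice 1 and 2 and 501.9 CPM in mouse 3. CA1 and CA3 sums overlapped. The part of these markers in the barrier gene values was not tested. Both tau comparisons use the same mice as the diet comparisons, so a gene's values in the 4 are not independent of each other.

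**Figure D3:**
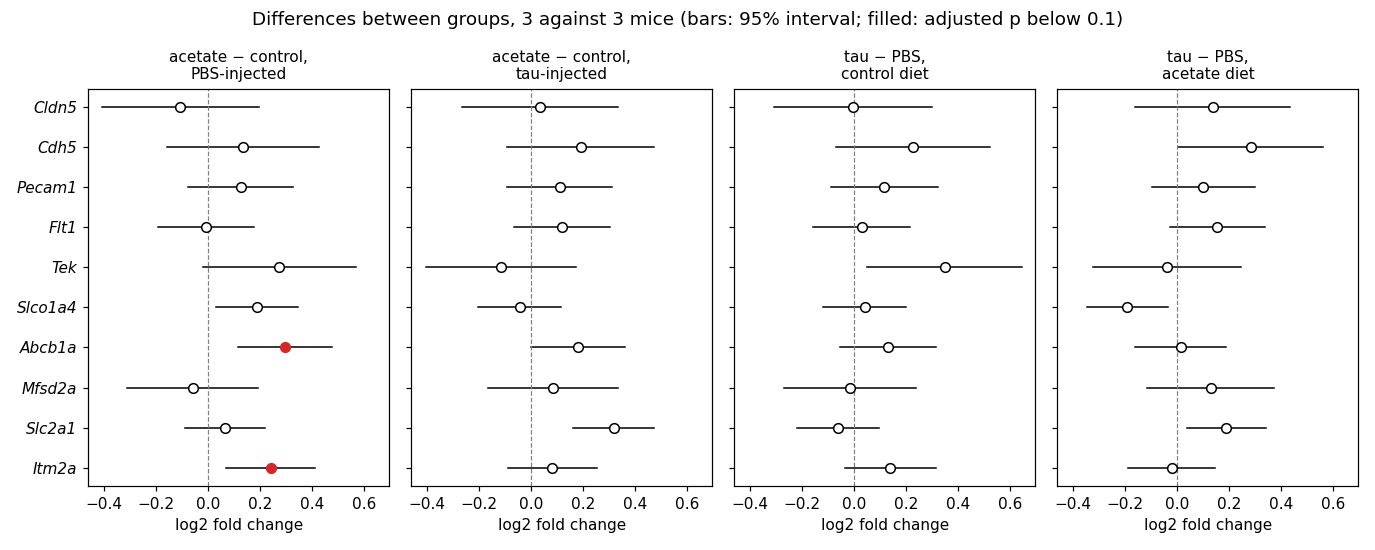
Log2 fold change of each barrier gene in the 4 comparisons of 3 against 3 mice, with the 95% interval as a bar and filled points where the edgeR adjusted p was below 0.1. The filled points are Abcb1a (0.30) and Itm2a (0.24) for acetate in PBS-injected mice, and the bars of Slc2a1 for acetate in tau-injected mice run from 0.163 to 0.472.

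Whether acetate acted differently with and without tau was tested by the interaction of diet and injection. By edgeR 0 of 10 barrier genes were called, against 1.56% of all genes. DESeq2 called 0 of the 10, and 438 of all genes. At an unadjusted p below 0.05 there were 2, against 12.997% of all genes, and they had opposite signs. The acetate difference of Slc2a1 was larger in tau-injected mice by 0.25 on the log2 scale (SE 0.104, 95% interval 0.0334 to 0.470, edgeR adjusted p = 0.308). That of Slco1a4 was smaller by the same kind of measure, with an interaction of -0.23 (SE 0.106, 95% interval -0.455 to -0.0104, edgeR adjusted p = 0.361). Tek had the largest value, -0.39 (SE 0.196, 95% interval -0.799 to 0.0234, edgeR adjusted p = 0.422). For Abcb1a and Itm2a the interaction was -0.12 (95% interval -0.369 to 0.139) and -0.16 (95% interval -0.400 to 0.0824), so their smaller acetate difference in tau-injected mice was not separated from that in PBS-injected mice. The half-width of the 95% interval lay between 0.153 and 0.304 on the log2 scale for the 4 pairwise comparisons and between 0.218 and 0.425 for the interaction. Over the 40 pairwise values no interval reached below -0.407 or above 0.645.

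Single mice differed across several barrier genes at a time. Tau-injected acetate mouse 2 had the highest value of the 12 for 7 of the 10 genes (Cldn5, Cdh5, Pecam1, Flt1, Abcb1a, Mfsd2a and Itm2a), against 6.23% of all genes tested with their highest value in that mouse. Its log2 CPM was on average 0.227 above each barrier gene's mean over the 12 mice, and 0.111 above over the 104 other vascular genes tested. Cldn5 showed it most clearly, at 40.7 CPM in mouse 2 and 29.6 and 25.8 CPM in mice 1 and 3 of that group. PBS-injected control mouse 3 had the lowest value for 5 of the 10 (Cdh5, Tek, Slco1a4, Abcb1a and Mfsd2a) and had an average log2 deviation of -0.166, and of -0.0908 over the other vascular genes. Of all genes tested, 12.3% had their highest value in that mouse, and the share with their lowest value there was not counted. Without tau-injected acetate mouse 2, the tau difference on the acetate diet was -0.07 for Cldn5 in place of 0.14, and 0.14 for Cdh5 in place of 0.28. The acetate difference in tau-injected mice was then -0.17 for Cldn5 in place of 0.04, 0.05 for Cdh5 in place of 0.19, and 0.33 for Slc2a1 in place of 0.32.

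**Figure D4:**
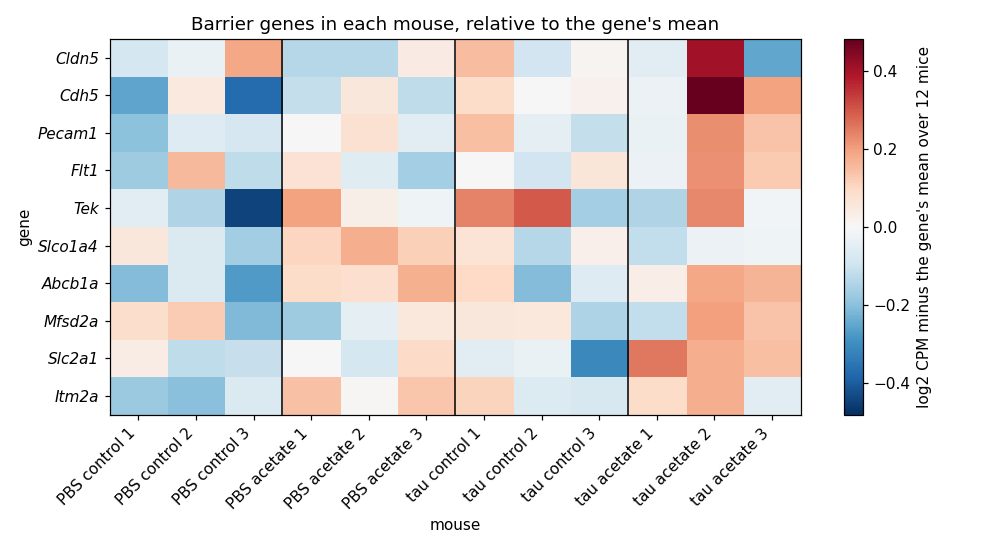
Log2 CPM of each barrier gene in each of the 12 mice minus the gene's mean over the 12, in colour, with black lines between the groups. The column of tau acetate mouse 2 is above the mean for 9 of 10 genes, and that of PBS control mouse 3 is above it for 1.

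Within the groups, most pairs of barrier genes varied in the same direction from mouse to mouse. After each group's mean was taken from every gene, 35 of the 45 pairs had a Pearson correlation above 0 over the 12 mice (77.8%, against 50.01% of all pairs of genes tested), with a median of 0.298. These are descriptions over mice that share libraries, depth and dissection. The highest pair was Cldn5 with Itm2a (r = 0.811) and the lowest Flt1 with Slc2a1 (r = -0.565). Cdh5 followed the mean of the other 9 genes most closely (r = 0.727), then Pecam1 (0.692), Abcb1a (0.655), Mfsd2a (0.636) and Tek (0.579). Flt1 (0.392), Cldn5 (0.346), Slco1a4 (0.337) and Itm2a (0.337) followed it less, and Slc2a1 least (0.0462).

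The genes outside the 10 whose levels were most like the mean of the barrier genes were not vascular genes by any list used here. After group means were taken away, they were Cdk7 (r = 0.927), Sdhaf2 (0.921), Eya1 (0.919), Ppp1r9b (0.906) and Oaf (0.881) over the 12 mice, with Spearman's rho from 0.790 to 0.881. Without the 2 mice farthest from the median, tau-injected acetate mice 1 and 2, r was from 0.731 to 0.917. On the levels as measured they were Ppp1r9b (r = 0.944), Fzd9 (0.894), Dact3 (0.880), Oaf (0.876) and Zfp503 (0.869), with rho from 0.699 to 0.958. With tau-injected acetate mouse 2 and PBS-injected control mouse 3 left out, r stayed at 0.960 for Ppp1r9b and 0.907 for Fzd9 and was 0.583 for Dact3, 0.643 for Oaf and 0.715 for Zfp503.

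The other genes of the barrier and its vessels were counted from 8 lists of 108 genes, of which 104 were tested. In PBS-injected mice 3 of the 104 were called higher with acetate and 4 lower, 6.73% against the 8.84% of all genes given above, and the median log2 fold change was 0.07. In the other 3 comparisons of 3 against 3 mice edgeR called 0 of the 104, against 0.0136% to 0.136% of all genes. DESeq2 also called 0, but gave an adjusted p to 93 for tau on the control diet. It gave one to all 104 for tau on the acetate diet and to 41 for acetate in tau-injected mice. Among all genes DESeq2 called 86, 121 and 176 in these comparisons. Medians of the 104 were from 0.05 to 0.07, and 63 to 72 of them were above 0, against 48.8% to 50.3% of all genes. At an unadjusted p below 0.05 there were 12 for tau on the control diet, against 9.65% of all genes. For tau on the acetate diet there were 11, against 10.3%, and for acetate in tau-injected mice 10, against 10.9%. The genes called higher in PBS-injected mice were Cgn, Cd34 and Vegfa. Cgn, the gene of the tight junction plaque protein cingulin and 1 of 11 tight junction genes, stood at 2.15, 1.78 and 1.56 CPM on the control diet and at 3.88, 3.04 and 2.36 on acetate, a log2 fold change of 0.75 (SE 0.252, edgeR adjusted p = 0.0962), and DESeq2 did not call it (adjusted p = 0.125). These levels rest on 23 to 60 reads per mouse over the 12 mice. Cd34, a surface sialomucin of endothelial cells and 1 of 18 identity genes tested, rose from 39.8 ± 3.93 to 56.5 ± 6.26 CPM (SD, n = 3), by 0.51 on the log2 scale (adjusted p = 0.0776). The CA1 marker sums given above were also higher in these acetate mice, and their part in the Cd34 values was not tested. Vegfa, the ligand of VEGFR1 and VEGFR2 that astrocytes and neurons make, rose from 53.6 ± 5.98 to 66.2 ± 2.50 CPM, by 0.31 (adjusted p = 0.0805).

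The 4 called lower with acetate in PBS-injected mice were a pair of transporters, a receptor and a ligand. Slc38a5, a glutamine transporter gene and 1 of 17 transporters, fell by 1.02 on the log2 scale (SE 0.310, edgeR adjusted p = 0.0692), from 2.62, 3.71 and 4.60 CPM to 1.03, 1.75 and 2.56 CPM. Slc39a10, a zinc importer that neurons also express, fell by 0.22 (adjusted p = 0.0550). Nrp1, the VEGF and semaphorin co-receptor and 1 of 12 receptor genes, fell by 0.29 (adjusted p = 0.0331), from 138.2 ± 9.91 to 113.1 ± 10.2 CPM. The CA3 marker sums given above were also lower in these acetate mice, and their part in the Nrp1 values was not tested. Apln, the ligand of the apelin receptor and 1 of 11 ligand genes tested, fell by 0.36 (adjusted p = 0.0419). Of the 13 genes of Wnt signalling to the barrier, the 15 transcription factors and the 7 tested genes of transcytosis and leukocyte adhesion, 0 were called by edgeR or by DESeq2, with 0, 0 and 1 at an unadjusted p below 0.05, against 20.8% of all genes. Their medians in this comparison were 0.04, 0.05 and 0.12.

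The mural cells that wrap the same vessels were followed by 10 pericyte and 8 smooth muscle genes. In PBS-injected mice 3 of 10 pericyte genes were called higher with acetate, namely Pdgfrb, the PDGF-B receptor, by 0.34 (adjusted p = 0.0706), Cspg4, the NG2 proteoglycan, by 0.29 (adjusted p = 0.0767), and Atp13a5, a P-type ATPase, by 0.44 (adjusted p = 0.0703), against 3.99% of all genes called higher. DESeq2 called 2 of the 3 and not Cspg4 (adjusted p = 0.105). Cspg4 is also a marker of oligodendrocyte precursors. The sum of the pericyte list was 197.1 to 220.1 CPM on the control diet and 220.9 to 235.9 CPM on acetate, so the ranges did not overlap, and its part in the Abcb1a and Itm2a results was not tested. Of 7 smooth muscle genes tested, Myl9 rose by 0.55 (adjusted p = 0.0710), and Mylk, myosin light chain kinase, which neurons express too, fell by 0.81 (SE 0.114, edgeR adjusted p = 0.00448). Over all genes edgeR called 8.84% in either direction. Of the 7 genes 6 were above 0, with a median of 0.45, and DESeq2 called 3. In the other 3 comparisons of 3 against 3 mice edgeR called 0 pericyte and 0 smooth muscle genes. At an unadjusted p below 0.05 there were 5 of 10 pericyte and 4 of 7 smooth muscle genes for tau on the control diet, against 9.65% of all genes. There were 1 and 0 for tau on the acetate diet, against 10.3%, and 0 and 1 for acetate in tau-injected mice, against 10.9%. DESeq2 called 1 smooth muscle gene, of the 5 to which it gave an adjusted p for tau on the control diet. For acetate in tau-injected mice it gave one to 4 pericyte genes and 1 smooth muscle gene. The pericyte sum was 219.7 to 252.0 CPM in tau-injected control mice and 208.6 to 246.3 CPM in tau-injected acetate mice.

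**Figure D5:**
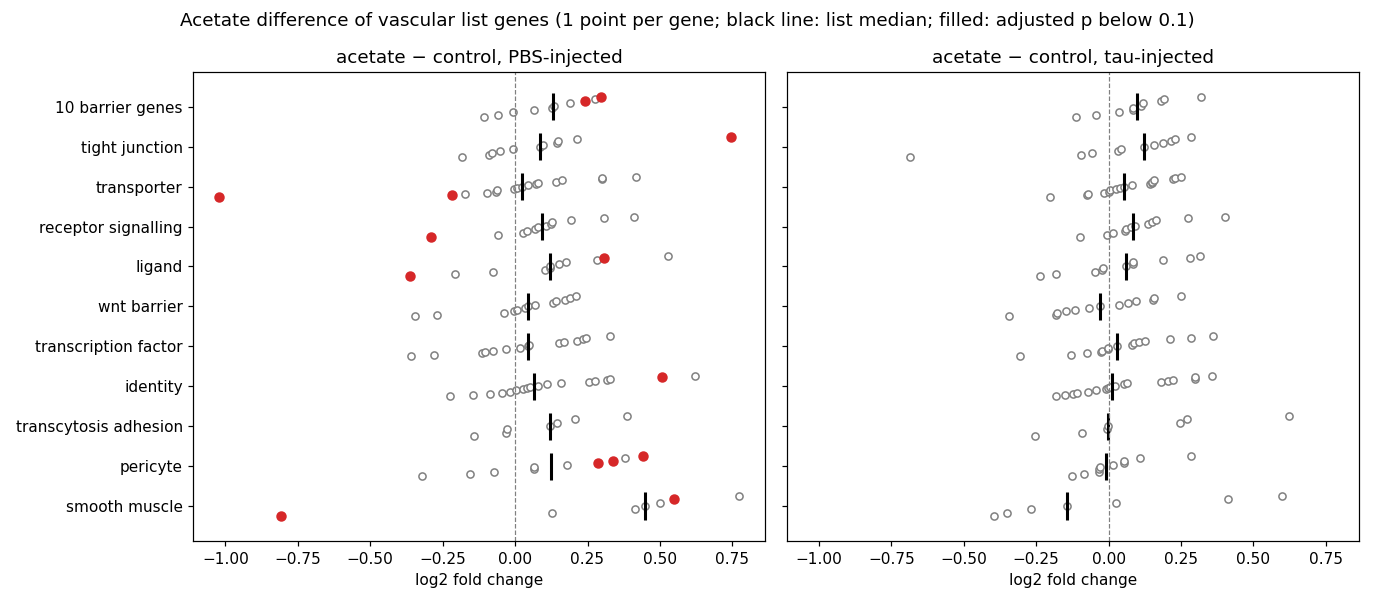
Log2 fold change between acetate and control diet of every tested gene of the barrier, vascular and mural lists, in PBS-injected mice (left) and tau-injected mice (right), with 1 point per gene, a black line at the list's median and filled points where the edgeR adjusted p was below 0.1. In PBS-injected mice the filled points run from -1.02 (Slc38a5) to 0.75 (Cgn), and in tau-injected mice there are none.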

How the data were processed

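Libraries of poly(A) RNA from 12 mice were sequenced. The authors aligned reads to GRCm38 with STAR 2.5.2a and counted exon reads per gene with HTSeq 0.9.1, taking the reverse strand. The values they deposited are raw counts for each mouse, and 0 columns were left unused here. The design text has all mice harvested on 1 day and processed together.

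Genes were kept by filterByExpr (minimum count 10, minimum total 15) and fitted with edgeR 4.0.16 in R 4.3.3 (robust quasi-likelihood F test, TMM, 1 mean per group). The Benjamini-Hochberg adjustment ran over every gene tested, and the threshold was 0.1. Standard errors came from the F statistic, and log2 CPM used a prior count of 2. The functions were tested on simulated data. The study's methods name DESeq2's Wald test, which was run (1.42.0) as an alternative, beside its size factors in edgeR, no filter, a threshold of 0.05, the replicate number as a block, the 6 compared mice alone and each mouse left out in turn. Replicates of a group differed by more than counting noise (chi-square per degree of freedom 3.45 to 7.53).

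The 10 genes, the vascular and marker lists and the rule for genes named from them were chosen with earlier results of these data known. The rule took the 10 genes, the genes called on a vascular list (at most 4 per list and comparison) and the 5 genes most like the mean of the 10. Abcb1b, Aqp4, Slc1a3, Folr1 and the named mural genes were added after their values were seen. Positions and exon lengths are those of GENCODE on GRCm38, and promoters those of RefSeq on GRCm38.p6. Other experiments of the study were not analysed here.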

Additional observations from a re-analysis of the deposited data

Results flagged for a closer look

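Among the genes of the lists used here, 3 had an acetate difference that itself differed between PBS-injected and tau-injected mice by edgeR's test of the interaction of diet and injection, and none of the 3 is one of the 10 barrier genes. Of the 104 other vascular genes tested 1 was called, Cgn, or 0.962% against 1.56% of all genes. The other calls were 1 of 8 astrocyte markers, Aqp4, and 1 of 9 tested choroid plexus markers, Folr1. DESeq2 called the same 3 genes and, among others, all 9 oligodendrocyte markers, of which edgeR called 0, although all 9 had an unadjusted p below 0.05 in edgeR and a median interaction of 1.04. With each mouse left out in turn, edgeR called the interaction of Cgn in 5 of 12 fits (-1.59 to -1.25), of Aqp4 in 6 (0.27 to 0.39) and of Folr1 in 3 (2.15 to 3.33). For Cgn the log2 fold change with acetate was 0.75 in PBS-injected mice and -0.69 in tau-injected mice, and the interaction was -1.43 (SE 0.353, adjusted p = 0.0755). In tau-injected mice Cgn stood at 2.60, 3.45 and 3.74 CPM on the control diet and at 1.73, 2.06 and 2.31 CPM on acetate, without overlap, and within tau-injected mice alone it was not called (edgeR adjusted p = 0.319). Cgn is also expressed in epithelia, and the summed choroid plexus markers were 95.1 to 126.8 CPM in PBS-injected control mice, 70.5 to 85.8 in PBS-injected acetate mice, 103.0 to 213.9 in tau-injected control mice and 86.2 to 501.9 in tau-injected acetate mice. Their part in the Cgn values was not tested.

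Aqp4, the water channel of the astrocyte endfeet that cover brain vessels, had an interaction of 0.35 (SE 0.087, edgeR adjusted p = 0.0755), with a log2 fold change of -0.20 in PBS-injected mice and 0.15 in tau-injected mice. Folr1, a folate receptor of the choroid plexus, had an interaction of 2.92 (SE 0.707, edgeR adjusted p = 0.0755). It stood at 1.98, 1.39 and 1.35 CPM on the control diet and at 0.517, 0.516 and 0.383 on acetate in PBS-injected mice, the latter on 6 to 10 reads per mouse. In tau-injected mice it stood at 0.938, 0.995 and 0.992 CPM on the control diet and at 1.83, 0.726 and 4.24 on acetate, so the groups overlapped. The tau-injected acetate mean of 2.27 CPM was 1.28 CPM without mouse 3, and the interaction was then 2.15 (edgeR adjusted p = 0.0659).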

How the results depend on the processing

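Over 890 alternative values of the 50 log2 fold changes of the barrier genes, 16 lost a call, 2 gained one and 38 changed sign, the last all among differences of at most 0.14. The genes called were 2, 20, 1303, 9 and 230 for tau on the control diet, tau on the acetate diet, acetate in PBS-injected mice, acetate in tau-injected mice and the interaction, and the barrier genes called were 0, 0, 2, 0 and 0. Without the filter, tau on the acetate diet gave 37 genes and acetate in tau-injected mice 56, with 1 barrier gene, Slc2a1. DESeq2 gave 86 and 121 genes for tau on the control and acetate diets, 1 barrier gene (Abcb1a) for acetate in PBS-injected mice, 176 genes and 1 barrier gene (Slc2a1) for acetate in tau-injected mice, and 438 genes for the interaction. At an adjusted p below 0.05 the counts in the same order were 0, 0, 541, 3 and 43 genes, with 0 barrier genes for acetate in PBS-injected mice. On the 6 compared mice alone, tau on the control diet gave 35 genes and acetate in tau-injected mice 2. Deviations of same-numbered mice correlated at -0.105 to 0.144, with 2 of 18 pairs above 0.1, against 5 of 36 pairs of mice with different numbers. With 3 mice per group these correlations cannot settle whether the numbers pair the mice. With the replicate block, tau on the control diet gave 9 genes, the interaction 349, and acetate in PBS-injected mice 1 barrier gene, Itm2a having an adjusted p of 0.115, and no other call among the barrier genes changed. The cause of these changes was not tested.

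With each mouse left out in turn, genes called ranged from 0 to 16, 0 to 93, 15 to 1425, 1 to 66 and 8 to 442 in the order above, the lowest count for acetate in PBS-injected mice coming without PBS-injected acetate mouse 2, and barrier genes called in that comparison from 0 to 2. Abcb1a was called there in 7 of 12 such fits, with log2 fold changes from 0.25 to 0.35, and Itm2a in 5 of 12, from 0.22 to 0.29. Slc2a1 for acetate in tau-injected mice ranged from 0.23 to 0.37 (edgeR adjusted p 0.104 to 0.352). The differences that changed sign when a mouse was left out ranged as follows. For tau on the control diet these were Cldn5 (-0.069 to 0.085), Flt1 (-0.035 to 0.14), Slco1a4 (-0.0094 to 0.10), Mfsd2a (-0.11 to 0.048) and Slc2a1 (-0.11 to 0.022). For tau on the acetate diet these were Cldn5 (-0.068 to 0.27), Tek (-0.15 to 0.048), Abcb1a (-0.017 to 0.064) and Itm2a (-0.073 to 0.039). For acetate in PBS-injected mice these were Flt1 (-0.065 to 0.10) and Mfsd2a (-0.16 to 0.0015), and Flt1 was 0.0043 without the filter. For acetate in tau-injected mice these were Cldn5 (-0.17 to 0.17) and Slco1a4 (-0.10 to 0.0031), and for the interaction Cldn5 (-0.065 to 0.27), Cdh5 (-0.089 to 0.18) and Pecam1 (-0.075 to 0.061). Cdh5 had 126 to 256 reads per mouse, Tek 134 to 245 and Cldn5 389 to 673. For tau on the control diet their SEs were 0.141, 0.142 and 0.141. The part of read counts in the precision was not tested.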
